A study of Mus musculus with 4 samples.

Results

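The axon degeneration genes Sarm1, Nmnat1, Nmnat2, Nmnat3, Nampt, Map3k12, Map3k13, Mapk8, Mapk10 and Mapk8ip3 were followed in ribosome footprint libraries of the mouse dorsal root ganglion (DRG), which houses the somata of sensory neurons. Ribosome footprints are the pieces of mRNA that ribosomes protect from nuclease. The genes were taken by symbol from the deposited table, which gave 1 row each, 10 of its 48431 genes. The 4 libraries form 1 group: ganglia of male wild-type (WT) SW mice given methylglyoxal, a reactive by-product of glycolysis, intraperitoneally at 2 mg/kg for 6 days. No age is given, and whether each replicate is 1 animal, a pool or a repeat preparation is not stated in the labels. The protocol text of these libraries mentions saline instead, so they are named by the treatment label alone. No control libraries were analysed here. The comparisons are therefore between genes within a library and between libraries.

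Axons degenerate by an active programme. SARM1 is an enzyme that destroys NAD once it is switched on by a fall of NAD relative to its precursor NMN. The NMNAT enzymes turn NMN into NAD, NAMPT makes NMN from nicotinamide, and the short-lived NMNAT2 is the form that axons depend on. The kinases DLK and LZK, encoded by Map3k12 and Map3k13, act upstream of the JNK kinases in the response of sensory neurons to axon damage, and JIP3, encoded by Mapk8ip3, is a scaffold that ties JNK signalling to axonal transport.

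Values are CPM, which relate a gene's reads to 1000000 reads of its library and take no account of gene length. The libraries held between 2610536 and 3753018 reads, and 1 read was worth 0.266 to 0.383 CPM. Levels of different genes are compared as CPM per kb of coding length, which assumes that footprints fall within coding sequence. Counts of replicates 1 and 2 were nearly as alike as resampling of 1 library would give, and so were those of replicates 3 and 4. Chi-square per degree of freedom over genes was 1.03 and 1.05 within these 2 pairs, and 3.27 to 4.01 across them. Each pair was counted as 1 sample, so every mean ± SD is over the 2 pair means (n = 2), and the spread may be technical. Intervals printed with reads cover counting error only.

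The defining markers of the ganglion were present. All 16 sensory neuron markers were detected, with Nefm and Nefl, which encode neurofilaments, at 3466 ± 41.8 and 3217 ± 22.1 CPM. So were all 12 Schwann cell and all 10 satellite glia markers, with Apoe, the highest of the satellite glia list, at 6686 ± 54.3 CPM. Of 9 spinal cord glia markers 7 were detected, with sums of 53.0 to 83.5 CPM. Gfap held most of that at 41.2 ± 14.0 CPM, followed by Aqp4 at 10.3 ± 2.08, and Opalin and Ermn, both oligodendrocyte genes, missed the minimum of 1 CPM. The list also holds Slc6a5, the gene of a neuronal glycine transporter, at 4.37 ± 1.49 CPM. Of all protein-coding genes, 63.8% reached that minimum. These are bulk samples, in which fewer cells of a type and less RNA per cell cannot be told apart, and the cells that carry each of the 10 genes are not resolved.

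Of the 10 genes, 9 reached a mean of 1 CPM, a minimum that 31.5% of all genes and 63.8% of protein-coding genes reached. Nmnat3 did not. Per kb of coding length, 7 of the 10 lay above the median of the 13799 detected protein-coding genes, 11.2 CPM per kb, and their own median was 15.4. The order by mean was Nmnat2, Mapk8ip3, Mapk10, Nampt, Map3k12, Mapk8, Sarm1, Nmnat1, Map3k13 and Nmnat3. From Sarm1 down the ranks were the same in all 4 libraries. Above it, 3 pairs of neighbours changed places in replicate 1 alone.

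**Figure D1:**
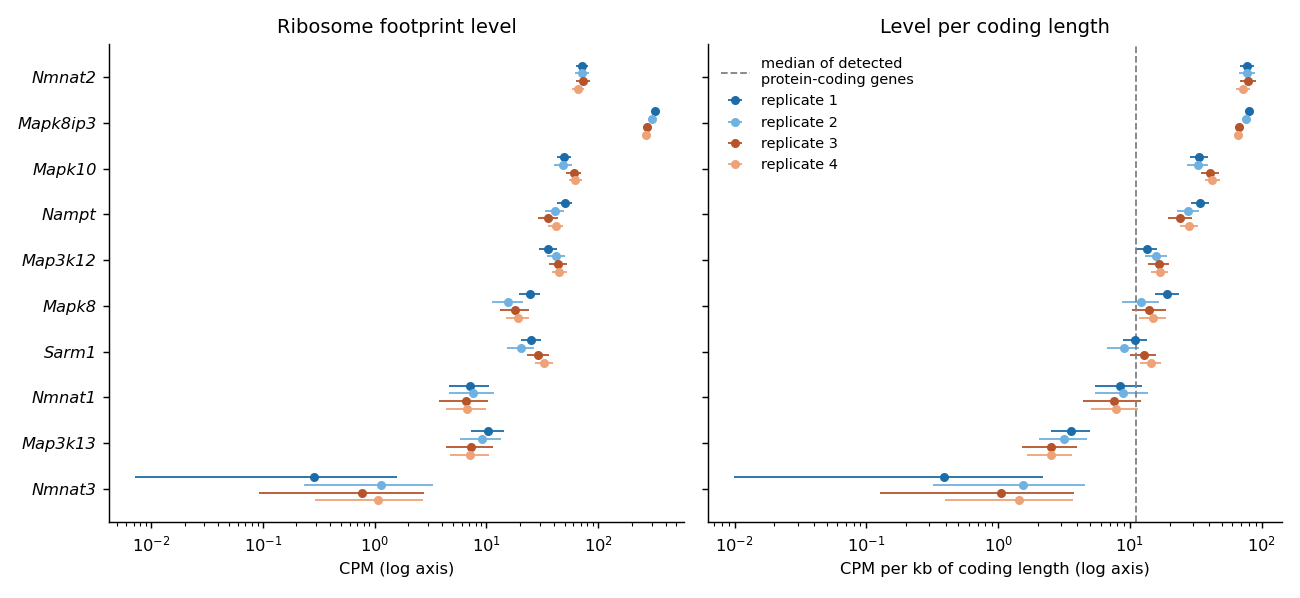
Level of each gene in the 4 libraries, left in CPM and right in CPM per kb of coding length, both on log axes. Points are libraries, bars are exact 95% Poisson intervals of the reads, and the dashed line is the median of detected protein-coding genes, 11.2 CPM per kb. Mapk8ip3 is highest in CPM, and it and Nmnat2 lie side by side per kb.

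Sarm1 (chromosome 11, 78472330 to 78497754, GRCm38, minus strand) encodes the NAD-destroying enzyme. It stood at 25.2, 20.5, 29.1 and 33.0 CPM in replicates 1 to 4, from 88, 54, 76 and 124 reads. Replicates 3 and 4 were both above replicates 1 and 2. Per kb of its 2292 coding bases its level was 11.8 ± 2.53 CPM, at the 51.3rd percentile of detected protein-coding genes. Its coding sequence had the highest GC content of the 10 genes, 62.5%, against a median of 53.3% over detected protein-coding genes. No stretch of 28 bases in it, the length of the shortest footprint selected, occurs in a transcript of another gene.

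The 3 NMNAT genes differed widely. Nmnat2 (chromosome 1, 152954993 to 153119261, plus strand), the gene of the cytosolic and axonal enzyme, stood at 71.4, 71.4, 72.8 and 66.3 CPM, with 876 reads in all. Per kb this was 76.5 ± 1.40 CPM, at the 89.8th percentile. Nmnat1 (chromosome 4, 149467572 to 149485202, minus strand), the gene of the nuclear enzyme, stood at 7.17, 7.59, 6.51 and 6.66 CPM, with 87 reads in all and 8.17 ± 0.657 CPM per kb. Nmnat3 (chromosome 9, 98287435 to 98420438, plus strand), the gene of the mitochondrial enzyme, had 1, 3, 2 and 4 reads, which gave 0.287, 1.14, 0.766 and 1.07 CPM. In each library every Nmnat2 value exceeded every Nmnat1 value, and Nmnat1 exceeded Nmnat3. A count of 0 would have allowed 3 reads, or 0.799 to 1.15 CPM, so Nmnat3 lay at about the limit of detection.

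Because the NMNAT enzymes are related, the most alike stretches of 28 coding bases of each 2 genes are shown (GENCODE M21 transcripts, GRCm38, 5′ to 3′). Capitals mark the bases that differ.
Nmnat2 from coding base 34: ctggcctgCggcAGCttCaaTcccatca
Nmnat1 from coding base 34: ctggcctgTggcTCTttTaaCcccatca
Nmnat2 from coding base 229: tcCgactggatCAgggtggacccAtggg
Nmnat3 from coding base 223: tcTgactggatTCgggtggacccCtggg
Nmnat1 beside Nmnat3: ctggcctgtggCtcTttTaaccccatca
Nmnat3 beside Nmnat1: ctggcctgtggTtcCttCaaccccatca
Even these closest stretches differ at 6, 4 and 3 bases. None of the 894 windows of Nmnat2 came within 2 mismatches of Nmnat1 or Nmnat3, and no window of the 3 genes was found in a transcript of any other gene.

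Nmnat2 exceeded Nmnat1 by 3.06 ± 0.07 on the scale of log2(CPM + 1) per coding kb, in 4 of 4 libraries (p = 0.13 by a two-sided exact permutation of signs, 0.136 after Benjamini-Hochberg adjustment over 12 contrasts). That p is the smallest that 4 libraries can give, and with the pairs counted as 2 samples it could not go below 0.5. It was the same for every contrast below unless another is given. The read intervals pool the 4 libraries and cover counting error only. They leave out the difference between the pairs, so they are narrower than the full uncertainty. Divided by exon length the difference was 2.23. By reads per kb, Nmnat2 was 9.35 times Nmnat1 (95% exact binomial interval 7.49 to 11.8). It was 69.9 times Nmnat3 (37.8 to 146), where the log2 difference was 5.0 ± 0.17 and ran from 3.37 with a pseudocount of 5 CPM to 6.08 with 0.1. Nmnat1 was 7.48 times Nmnat3 (3.88 to 16.1), with a log2 difference of 1.94 ± 0.25. That difference rests on the 10 reads of Nmnat3 and was 0.83 with a pseudocount of 5 CPM.

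Sarm1 lay below Nmnat2 by a log2 difference of -2.69 ± 0.33, in 4 of 4 libraries, and Nmnat2 had 6.37 times its reads per kb (5.62 to 7.24). Divided by exon length, which counts untranslated exons too, the difference was -1.33. Sarm1 and Nmnat1 were not separated beyond the spread of the pairs on the log2 scale. In CPM per kb, without a pseudocount, Sarm1 was above Nmnat1 in all 4 libraries, in replicate 2 at 8.95 against 8.88. The log2 scale adds the pseudocount before division by length, which lifts the shorter Nmnat1 more. On that scale Sarm1 was higher in 3 of 4 libraries, by 0.37 ± 0.41 (p = 0.25 by the same exact permutation test, adjusted 0.25). The difference was 0.081 in replicates 1 and 2 and 0.65 in replicates 3 and 4. With a pseudocount of 5 CPM the sign turned, to -0.022, and without division by length the difference was 1.79. By reads per kb the ratio was 1.47 (1.16 to 1.88, counting error only).

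Nampt (chromosome 12, 32819545 to 32853349, plus strand), the gene of the enzyme that supplies NMN, stood at 50.2, 41.0, 35.6 and 41.6 CPM, with 532 reads in all and 28.6 ± 3.36 CPM per kb. Replicate 1 was highest and replicate 3 lowest. It lay below Nmnat2 by -1.42 ± 0.14 and above Nmnat1 by 1.64 ± 0.06 on the log2 scale, each in 4 of 4 libraries. By reads per kb it was 3.55 times Nmnat1 (2.82 to 4.51), and Nmnat2 was 2.63 times Nampt (2.36 to 2.94). Divided by exon length, the difference from Nmnat2 shrank to -0.55. At 43.0%, its coding GC content was the lowest of the 10.

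Of the genes of the 2 kinases DLK and LZK, the DLK gene was higher. Map3k12 (chromosome 15, 102497646 to 102517064, minus strand) stood at 35.8, 42.1, 44.1 and 44.8 CPM and at 15.7 ± 1.44 CPM per kb. Map3k13 (chromosome 16, 21794346 to 21933439, plus strand) stood at 10.3, 9.11, 7.28 and 7.19 CPM, from 36, 24, 19 and 27 reads, and at 2.95 ± 0.610 CPM per kb. The lowest Map3k12 library was above the highest Map3k13 library. The log2 difference was 2.29 ± 0.40 in 4 of 4 libraries, and Map3k12 had 5.29 times the reads per kb (4.28 to 6.58). Their most alike stretches differ at 2 bases, and 15 of the 2637 windows of Map3k12 came within 2 mismatches of Map3k13.
Map3k12 from coding base 613: aacatcatcAcTttcaagggtgtttgca
Map3k13 from coding base 640: aacatcatcGcCttcaagggtgtttgca
No window was identical between both. Exons of Map3k12 overlap those of Pcbp2 and Gm10337 on the opposite strand, at 119 and 0.653 CPM. As the strand setting is not given in the sources used here, reads of the overlaps cannot be told apart, and Gm10337 holds 134 of the Map3k12 windows, or 5.08%. Exons of Map3k13 overlap the noncoding genes 1300002E11Rik, at 1.83 CPM, and 2610020F03Rik, listed at 0, which holds 28 of its windows.

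Among the JNK genes, the JNK3 gene exceeded the JNK1 gene. Mapk10 (chromosome 5, 102907948 to 103211334, minus strand), which encodes JNK3, the form found mainly in the nervous system, stood at 49.6, 48.6, 60.1 and 62.6 CPM and at 37.3 ± 5.86 CPM per kb. Mapk8 (chromosome 14, 33377898 to 33447158, minus strand), which encodes the broadly expressed JNK1, stood at 24.7, 15.6, 18.0 and 19.2 CPM and at 15.1 ± 0.838 CPM per kb. Every Mapk10 library was above every Mapk8 library. The log2 difference was 1.27 ± 0.28 in 4 of 4 libraries, with 2.43 times the reads per kb (2.10 to 2.83). The third JNK gene, Mapk9, named here for its family and outside the naming rule, stood at 38.4 ± 3.04 CPM per kb, next to Mapk10. The most alike stretches of Mapk10 and Mapk8 differ at 1 base, and their longest identical run was 23 bases, shorter than a footprint.
Mapk10 from coding base 799: ggcatgggctacaaggagaacgtGgaca
Mapk8 from coding base 595: ggcatgggctacaaggagaacgtTgaca
Windows within 2 mismatches were few, 24 of the 1455 of Mapk10. How reads with mismatches were placed is not given in the sources used here.

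Mapk8ip3 (chromosome 17, 24892153 to 24936977, minus strand), the JIP3 scaffold gene, had the most reads of the 10, 3635 of 7046. It stood at 322, 304, 272 and 267 CPM, higher in replicates 1 and 2 than in 3 and 4. Its coding sequence, 4035 bases in 32 coding exons, is also the longest, and per kb it stood at 72.2 ± 7.73 CPM, at the 89.1st percentile. It exceeded Map3k12 by 2.18 ± 0.29 and Mapk10 by 0.94 ± 0.38 on the log2 scale, in 4 of 4 libraries each. By reads per kb it was 4.62 times Map3k12 (4.22 to 5.08) and 1.93 times Mapk10 (1.78 to 2.09). Without division by length the difference from Mapk10 was 2.38. Exons of Mapk8ip3 overlap those of Eme2 on the same strand, at 17.3 CPM, and of Mrps34 and Nme3 on the other, at 20.1 and 10.5 CPM. Its values in replicates 3 and 4 came to 709.3 and 1000.6 reads, while every other value of the 10 genes was a whole number of reads within 0.02.

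Mapk10 also exceeded Map3k12, by 1.24 ± 0.09 in 4 of 4 libraries and by 2.40 times in reads per kb (2.14 to 2.69). Divided by exon length the difference was 0.085, and without division by length 0.39. In the order of levels, 5 of the 9 neighbouring differences were larger than the SD of the difference over the pairs. Nmnat2 and Mapk8ip3 (0.10 ± 0.13), Mapk10 and Nampt (0.38 ± 0.39), Map3k12 and Mapk8 (0.026 ± 0.19) and Sarm1 and Nmnat1 were not separated beyond their spread.

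**Figure D2:**
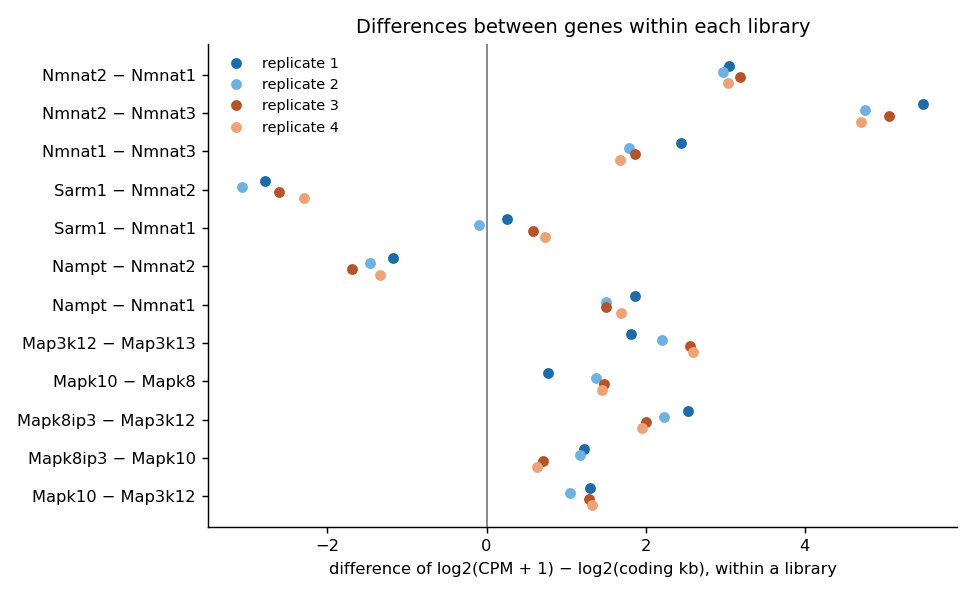
Differences between genes within each library for the 12 contrasts, on the scale of log2(CPM + 1) less log2 of the coding length in kb. Each point is 1 library. In 11 contrasts all 4 libraries lie on 1 side of 0, and in Sarm1 minus Nmnat1 replicate 2 lies on the other.

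Within the pairs of libraries, replicates were compared by the exact interval of the log2 difference of their reads. Mapk8 had 86 reads in replicate 1 and 41 in replicate 2, a log2 difference of -0.66 (95% exact binomial interval -1.24 to -0.11). Of all genes with at least 20 reads, 2.27% were lower and 2.39% higher in replicate 2 by the same rule. Of the 9 members tested, 1 was lower and 0 were higher. In replicate 4 against 3, 0 members were lower or higher, against 2.26% and 2.56% of all genes.

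Replicates 3 and 4 together differed from replicates 1 and 2 in 3 members, a comparison added after the likeness of the libraries was seen. With the interval of the log2 difference excluding 0, 2 of the 9 genes with at least 20 reads were higher, as were 10.8% of all genes, and 1 was lower, as were 9.83%. The members' counts are too small to be told apart from these shares. Sarm1 had 22.9 CPM in replicates 1 and 2 and 31.1 in replicates 3 and 4, a log2 difference of 0.44 (0.12 to 0.76). Mapk10 had 49.1 and 61.4 CPM, a difference of 0.33 (0.10 to 0.55). Mapk8ip3 had 313 and 269 CPM, a difference of -0.23 (-0.32 to -0.13). Nmnat2 differed by -0.049 (-0.24 to 0.15), and Map3k12 by 0.21 (-0.048 to 0.46). Nampt differed by -0.24 (-0.49 to 0.010), and scaled to protein-coding reads, added after seeing the data, by -0.27 (-0.52 to -0.016), which made 2 lower members, against 11.4% of genes on that scale, and 2 higher, against 9.31%. Nmnat1, Map3k13 and Mapk8 differed by -0.16, -0.44 and -0.15, each with an interval that held 0.

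Cell type markers moved between the same libraries. Of the sensory neuron markers, 13 of 16 had a log2 difference above 0, whatever its interval, with a median of 0.12. By the interval rule 9 were higher in replicates 3 and 4 and 2 lower, against 10.8% and 9.83% of all genes. Their summed level was 16879 to 16898 CPM in replicates 1 and 2 and 17438 to 17452 in replicates 3 and 4. None of the 11 skeletal muscle markers had a difference above 0, and all 11 were lower by the interval rule. Their median was -0.57, and their sum was 4677 to 4743 CPM in replicates 1 and 2 and 2870 to 2898 in replicates 3 and 4. Of the macrophage markers 1 of 10 had a difference above 0, and by the interval rule 0 were higher and 5 lower. Their median was -0.29, with sums of 859 and 907 against 722 and 739 CPM. Schwann cell markers summed to 21618 and 21663 against 26472 and 26527 CPM. Satellite glia and fibroblast markers had medians of 0.18 and 0.092, endothelial markers 0.077 and spinal cord glia markers -0.35. Their part in the differences of Sarm1, Mapk10 and Mapk8ip3 was not tested.

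**Figure D3:**
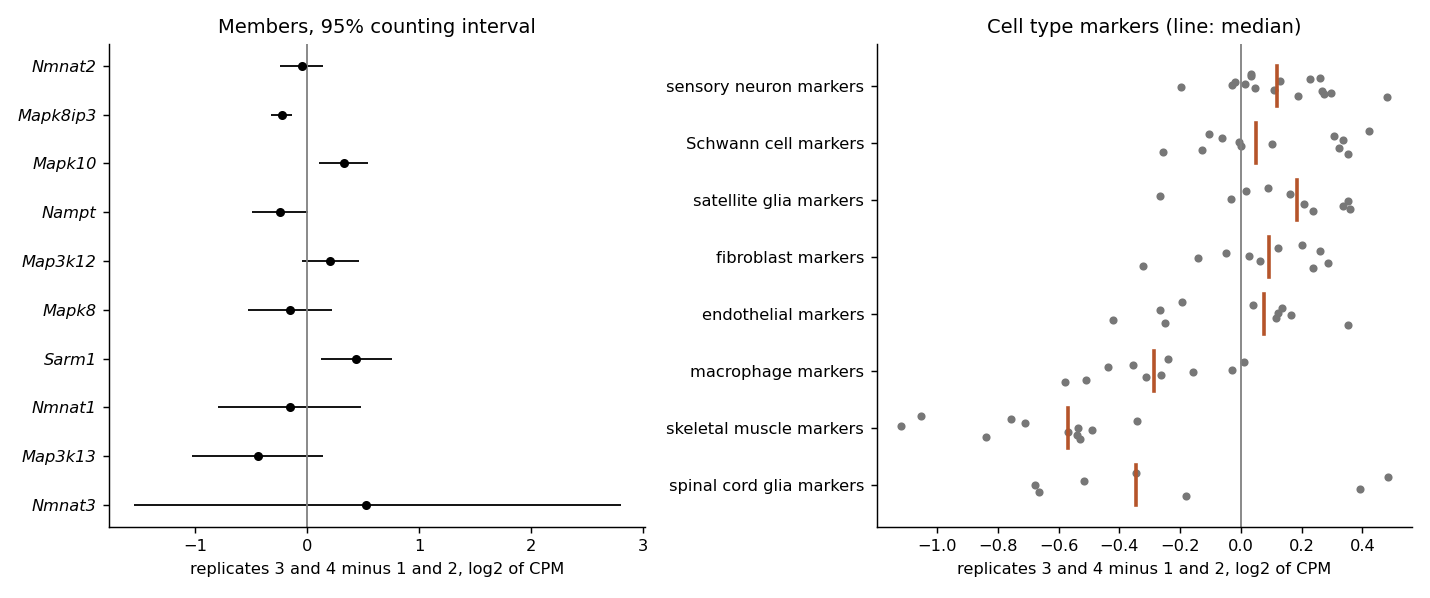
Log2 of the CPM in replicates 3 and 4 relative to replicates 1 and 2. Left, the 10 genes with exact 95% binomial intervals of their reads, where Sarm1 and Mapk10 lie right of 0 and Mapk8ip3 left. Right, single marker genes of 8 cell types with their medians, lowest for skeletal muscle at -0.57.

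The lists around these genes are described by counts, with no test against other genes. Members are counted in the lists that hold them, and 63.8% of all protein-coding genes reached the same minimum of 1 CPM. Of 20 genes of NAD synthesis and salvage in the table, 17 were detected, with a median of 8.17 CPM per kb, and 7 lay above the median of 11.2 for detected protein-coding genes. Nmnat2 led, followed by Nt5e, the gene of a surface enzyme that dephosphorylates nucleotides, at 39.3 ± 2.51 CPM per kb and then Nampt. Kmo, of the route from tryptophan, was the lowest detected at 1.32 ± 0.385 and Haao, of the same route, was listed at 0. All 16 genes of enzymes that consume or hydrolyse NAD were detected, with a median of 9.81 CPM per kb, and 6 lay above 11.2. The deacetylase gene Sirt2 led at 125 ± 3.52, followed by Parp1 and Tnks, which encode ADP-ribosylating enzymes, at 32.1 ± 2.99 and 29.8 ± 1.60. Sirt4 was lowest at 3.48 ± 0.740. Sarm1 ranked 6th of these 16.

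Of the genes linked to the turnover and transport of NMNAT2, all 10 in the table were detected, 9 of them above 11.2, with a median of 52.1 CPM per kb. Skp1a, which encodes a ubiquitin ligase adaptor, stood at 786 ± 54.8, Stmn2, another short-lived axonal protein gene, at 781 ± 94.6 and the chaperone gene Hsp90aa1 at 144 ± 16.0 CPM per kb. Fbxo45, whose product joins the ligase that removes NMNAT2, was lowest at 5.47 ± 0.817. Mycbp2, which encodes the large subunit of that ligase and is named for this role, outside the rule, stood at 15.9 ± 0.669. Sequence shared with other genes was counted only for the 10 members.

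All 20 kinases of the cascade were detected, 11 of them above 11.2, with a median of 15.4 CPM per kb. Mapk3, which encodes an ERK kinase, led at 497 ± 8.14. Map2k4, which encodes a kinase that activates JNK, stood at 41.7 ± 1.61. Map3k10 was lowest at 1.05 ± 0.142. Of 12 scaffold and phosphatase genes 11 were detected, with a median of 17.9, and 7 lay above 11.2. The scaffold genes Mapk8ip2, Mapk8ip3 and Mapk8ip1 were the highest 3, with Mapk8ip2 at 76.1 ± 1.14 and Mapk8ip1 at 38.4 ± 1.01, and Sh3rf1 was the lowest detected at 0.972 ± 0.163. The list of JNK targets, which also holds the injury genes Sprr1a and Ecel1 that encode no transcription factor, was detected in full, 11 of 11, with a median of 11.2 CPM per kb. Jun led at 89.1 ± 7.58, before Atf7 at 29.3 ± 3.38 and Atf2 at 26.8 ± 4.96, and Ecel1 was lowest at 1.10 ± 0.733.

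Of 17 calpain, caspase and BCL2 family genes 16 were detected, 8 of them above 11.2, with a median of 12.1 CPM per kb. Capns1 and Capn2, which encode subunits of the proteases that cut the axonal cytoskeleton, stood at 449 ± 9.80 and 114 ± 2.77. Cast, which encodes their inhibitor calpastatin, followed at 85.0 ± 5.29. Apaf1, of the apoptosome, was the lowest detected at 2.09 ± 0.017.

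**Figure D4:**
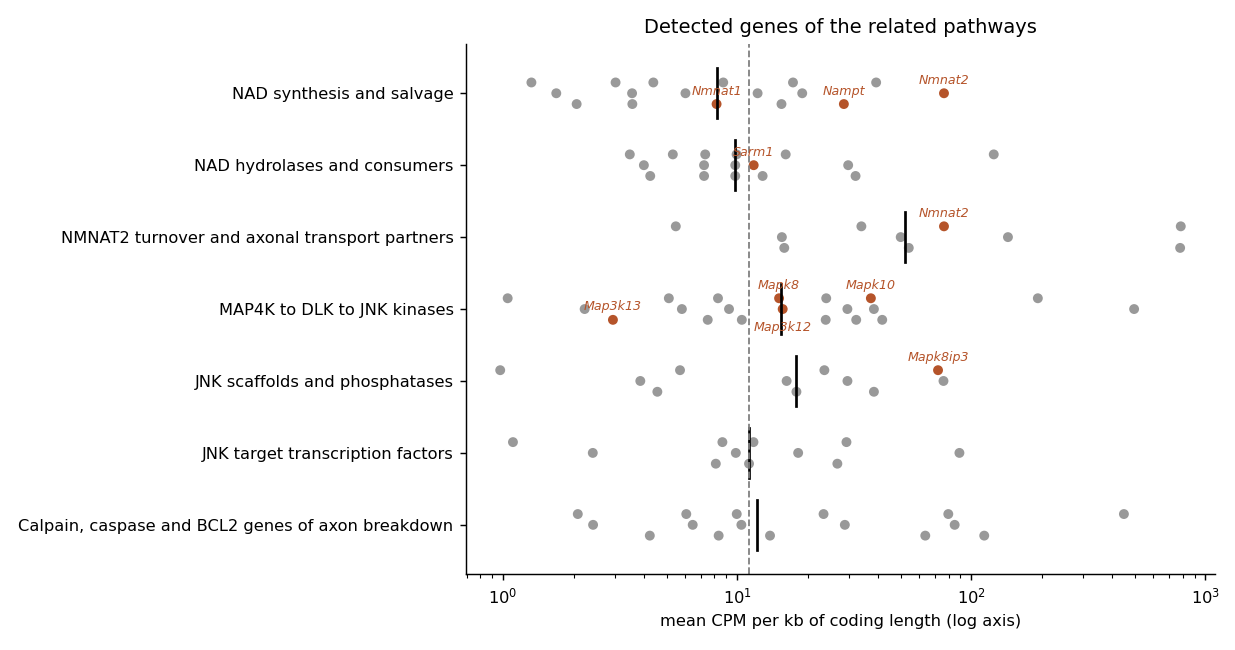
Mean CPM per kb of coding length, on a log axis, of the detected genes of 7 pathway lists. The 10 genes of the report are coloured and named where detected, black bars are list medians, and the dashed line is the median of detected protein-coding genes, 11.2. The list around NMNAT2 turnover has the highest median, 52.1.

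Other genes lay close to the members in level over the 4 libraries. By mean absolute difference of log2 levels per kb, the nearest to Sarm1 were Mif4gd (0.044), Edem2 (0.056) and Aqp4 (0.064), the nearest to Nmnat2 were Aak1 (0.030), Mapk8ip2 (0.032) and Ywhaq (0.033), and the nearest to Map3k12 were Zdhhc5 (0.030), Adgrg6 (0.035) and Lgr4 (0.042). Such likeness is common with 4 libraries: 2498, 1069 and 2687 of the 13799 genes lay within 0.5 of Sarm1, Nmnat2 and Map3k12.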

How the data were processed

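Footprints of 28 to 34 nt were sequenced after column isolation of ribosomes and rRNA depletion, per the labels' protocols. The submitters' processing notes name Cufflinks 2.2.1, Bowtie2 2.2.9, TopHat2 2.1.1 and FastQC 0.11.5 and the build GRCm38.p4 (mm10). Gene models, counting rule, strand setting and handling of multiply matching reads were not given in the sources used here.

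In the columns that the authors deposited as TPM, 96.5% to 97.0% of values above 0 are whole multiples of 1 step per library whatever the gene's length, so they were used as CPM. The step gave reads, within 0.02 of a whole number. GENCODE M21 (GRCm38) held 48052 of the 48431 gene IDs. Coding length is that of the longest annotated coding sequence.

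Contrasts used log2(CPM + 1) per coding kb, a scale that understates differences of low genes, and an exact sign-flip permutation test over the 4 libraries. The pairs of libraries, and replicates within them, were compared, as an addition made after seeing the data, by exact binomial intervals of reads over genes with at least 20 reads. Shared sequence was counted as windows of 28 coding bases found on either strand of a transcript of another gene. The members, lists and tests were chosen with earlier results of these data known. Genes named are the members, the 3 highest and the lowest detected genes of each pathway list per coding kb, those listed at 0, top markers and the 3 genes nearest to Sarm1, Nmnat2 and Map3k12; some genes that this rule picks are not reported here. Alternatives left out replicates or a pair and changed the pseudocount, the length, the scaling and the minimum. The recovery of reads and the comparison of the pairs were tested on simulated libraries. These carried counting noise and set changes only, without the wider difference seen between the real pairs. The contrasts were not simulated. Software was scipy 1.17.1, numpy 2.4.6, matplotlib 3.10.9 and pandas 2.3.3 in Python 3.11.15.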

Additional observations from a re-analysis of the deposited data

How the results depend on the processing

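Of the 12 contrasts under 12 alternatives, 143 of 144 values kept their direction. The exception was Sarm1 minus Nmnat1, which was 0.37 and turned to -0.022 with a pseudocount of 5 CPM. Leaving out each replicate moved it between 0.28 and 0.46. All alternatives reuse the same 4 libraries. Of the 10 levels per kb under 10 alternatives, 63 of 100 values stayed within the SD over the pairs and 37 moved beyond it. That count says little about stability. The mean of 1 pair alone cannot leave an SD taken over the 2 pair means. Another length, or scaling to protein-coding reads, changes the unit of every level. Division by exon length brought Nmnat2 minus Nmnat1 from 3.06 to 2.23 and Mapk10 minus Map3k12 from 1.24 to 0.085. It brought Sarm1 minus Nmnat2 from -2.69 to -1.33 and Nampt minus Nmnat2 from -1.42 to -0.55. Only the length differs in this alternative, so the annotated exon and coding lengths of the 2 genes set each change. Nmnat2 has 5781 exon and 921 coding bases, and Nmnat1 has 3037 and 855. Which length suits these reads better was not tested. Nmnat2 minus Nmnat3 was 3.37 with a pseudocount of 5 CPM and 6.08 with 0.1. The number of detected members was 9, and 7 with a minimum mean of 10 CPM. The members lower in replicates 3 and 4 numbered 1, and 2 with scaling to protein-coding reads. The comparison of the pairs and both of its alternatives were chosen after seeing the data. No paired analysis was possible because all libraries belong to 1 group. Depth limits Nmnat3, with 10 reads, and to a lesser degree Nmnat1 and Map3k13, with 87 and 106.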

Other observations

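Genes of the lists around the members differed between the pairs of libraries in both directions, and the lists and genes given here were picked after their values were seen. By the interval rule on genes with at least 20 reads, 5 of 11 JNK targets were lower in replicates 3 and 4 and 1 was higher. Of the calpain, caspase and BCL2 genes 1 of 15 was lower and 3 were higher. Of the scaffolds and phosphatases 1 of 11 was lower and 1 higher, and of the kinases 0 of 20 were lower and 2 higher. These counts include members reported above: the lower scaffold gene was Mapk8ip3, and 1 of the 2 higher kinase genes was Mapk10. The injury gene Sprr1a stood at 6.59 and 5.32 CPM in replicates 1 and 2 and at 0.766 and 1.33 in replicates 3 and 4, a log2 difference of -2.46 (95% exact binomial interval -3.87 to -1.27) from 37 and 7 reads. Ecel1 differed by -1.64 (-3.01 to -0.44) from 24 and 8 reads. Junb, Fos and Jund of the JNK target list were also lower in replicates 3 and 4, by differences of -0.53 (-0.92 to -0.15), -0.60 (-1.15 to -0.063) and -0.52 (-1.02 to -0.025). Atf2 was higher, by 0.42 (0.16 to 0.69), and Jun differed by 0.15 (-0.020 to 0.32). Bbc3, which encodes the death protein PUMA, differed by -1.77 (-3.24 to -0.50) from 23 and 7 reads. Bcl2l2, Tnfrsf21 and Cast of the same list were higher, by 1.65 (0.65 to 2.78), 0.17 (0.023 to 0.31) and 0.13 (0.018 to 0.25), where the values of Bcl2l2 were not whole reads and were rounded. Dusp22, a phosphatase gene, was higher by 0.66 (0.11 to 1.21). Of all genes with at least 20 reads, 9.83% were lower and 10.8% higher by the same rule. By that rule 11 of 11 skeletal muscle and 5 of 10 macrophage markers were lower in the same libraries, and 0 were higher. Of 16 sensory neuron markers 9 were higher and 2 lower, and of 10 fibroblast markers 6 were higher and 2 lower. Of 12 Schwann cell markers 5 were higher and 3 lower, and of 10 satellite glia markers 5 were higher and 1 lower. The part of these cell types in the differences was not tested.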
